A study of Cucumis melo with 4 samples.

Results

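The genes described here are melon (Cucumis melo) genes for DNA repair, DNA replication, DNA recombination and chromatin that carry a binding peak of CmNOR, a NAC-family transcription factor named after a ripening regulator of tomato. They were chosen by keywords in their Gene Ontology (GO) names, without regard to where their peaks lay. A gene was kept if a term contained DNA repair, DNA replication, DNA recombination, chromatin, histone, nucleosome or chromosome, and dropped if it also carried terms for DNA integration, reverse transcription, ubiquitin or a DNA-binding transcription factor. This gave 73 genes with 88 peaks, of 4510 genes and 5493 peaks in the whole list, and 3406 of the 4510 genes had a GO term. By keyword, 39 genes matched chromatin, histone or nucleosome, 17 DNA replication, 16 DNA repair, 16 chromosome and 8 DNA recombination, and 18 genes matched more than 1 of these.

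Peaks came from DAP-seq (DNA affinity purification sequencing): the protein is made with a tag in E. coli, captures pieces of purified genomic DNA, and these are sequenced. The bait was MBP-His-CmNOR in 2 libraries, and MBP-His, the maltose-binding protein and histidine tag without CmNOR, in 2 control libraries. All 4 used purified melon DNA outside the cell, so the packaging of DNA in nuclei did not enter the assay. The deposited list merges the experiment into 1 set of peaks and gives no read number, enrichment or p-value for any library. CmNOR and the tag control could therefore not be compared here, library depth is unknown, and the peaks have no replicate error. Counts are given with 95% exact Clopper-Pearson intervals, which cover counting error only. A limit given beside a count of 0 is instead 3 counts of the total. The comparisons with other genes are descriptions without a test. Genes carry the list's own identifiers, since 0 of the 73 matched the RefSeq gene table, and functions are those of the GO terms.

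Chromatin is DNA wrapped around histone proteins in units called nucleosomes, and enzymes that methylate or acetylate histones or move nucleosomes control access to it. Replication copies this DNA with helicases, polymerases, sliding clamps and ligases, while repair removes damaged bases, mismatches and breaks and shares several of these enzymes. Cohesin and related complexes hold sister DNA molecules together, and topoisomerases relieve the twisting that copying creates. Dividing cells need all of these, and young growing fruit contains many such cells.

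Peaks of these genes were about as often in promoters as those of other annotated genes, but more of them lay directly over a gene start. At least 1 peak in the authors' promoter class, which reaches 3 kb to either side of the gene start, was found for 34 of the 73 genes, or 46.6% (34.8 to 58.6). The share was 1635 of 3333, or 49.1% (47.3 to 50.8), for the other genes with a GO term, and 49.0% for all 3406. An upstream peak, with its centre less than 2 kb before the start, was found for 11 of the 73, or 15.1% (7.77 to 25.4), against 594 of 3333, or 17.8% (16.5 to 19.2), of the other genes and 17.8% of all. A peak covered the gene start in 9 of the 73, or 12.3% (5.80 to 22.1), against 140 of 3333, or 4.20% (3.54 to 4.94), of the other genes and 4.37% of all. The first 2 shares lay close to the background and the third lay above it, with intervals that did not meet. The first 2 were planned results, while the covered-start share was not planned and was 1 of several shares compared. A peak centre inside the gene was found for 26 of the 73, or 35.6% (24.7 to 47.7), against 930 of 3333, or 27.9% (26.4 to 29.5), of the other genes and 28.1% of all. All peaks were distal intergenic for 20 of the 73, or 27.4% (17.6 to 39.1), against 1218 of 3333, or 36.5% (34.9 to 38.2), of the other genes and 36.3% of all. These last intervals overlap.

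**Figure D1:**
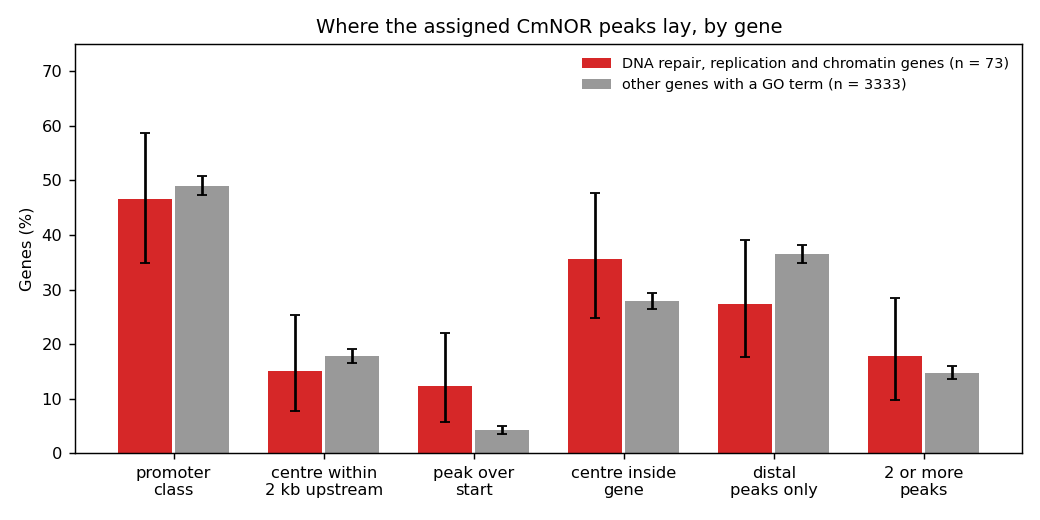
Percentage of genes with at least 1 assigned peak of each kind (distal peaks only means that all of a gene's peaks were distal intergenic), for the DNA repair, replication and chromatin genes (red, n = 73) and the other genes with a GO term (grey, n = 3333). Bars are shares and lines are 95% exact intervals for counting error; the 2 intervals are apart for a peak over the start (12.3% against 4.20%) and overlap for the others.

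The 9 start-covering peaks belonged to genes of the nucleosome, of replication and repair, and of DNA topology. In the nucleosome group, which the terms place in the DNA and histone particle itself, a peak of 1078 bp at chr5:904908-905985 covered the start of MELO3C014618.2 (gene at 905094 to 906536). It ran from 186 bp upstream to 891 bp inside this gene of 1443 bp and was the widest of all 88 peaks. A peak of 360 bp at chr4:9930119-9930478 covered the start of MELO3C018135.2 (9930168 to 9931244), from 49 bp upstream to 310 bp inside. A peak of 465 bp at chr8:9993655-9994119 covered that of MELO3C024490.2 (9993311 to 9994028), and a second peak of 413 bp lay 1075 bp upstream of the same gene. In all 3 of these genes most of the peak over the start lay inside the gene.

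A further 4 start-covering peaks belonged to genes of DNA synthesis, among them a sliding clamp gene. MELO3C025879.2, annotated as a DNA polymerase processivity factor (the clamp that keeps polymerase on DNA), had a peak of 382 bp at chr11:21316923-21317304 from 364 bp upstream to 17 bp inside the gene. MELO3C009479.2, a DNA-binding protein of replication, repair and recombination, had a peak of 493 bp at chr4:31814942-31815434, from 368 bp upstream to 124 bp inside. MELO3C009313.2, an ATP-binding replication protein, had a peak of 391 bp at chr4:32926110-32926500, from 286 bp upstream to 104 bp inside. MELO3C008864.2, a DNA-binding replication protein, had a peak of 778 bp at chr8:25197282-25198059, from 252 bp upstream to 525 bp inside, and another in an intron 3244 bp from its start. The first 3 of these peaks lay mostly upstream of the gene and the last mostly inside it.

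The remaining start-covering peaks were at a dioxygenase and a topoisomerase gene. MELO3C026046.2, annotated with DNA repair and dioxygenase activity, had a peak of 327 bp at chr8:28592649-28592975, from 132 bp upstream to 194 bp inside. MELO3C011386.2, a type II topoisomerase, which passes one DNA duplex through another, had a peak of 380 bp at chr3:26377557-26377936, from 310 bp upstream to 69 bp inside this gene of 31966 bp. It had a second peak in an intron, 16951 bp from the start.

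**Figure D2:**
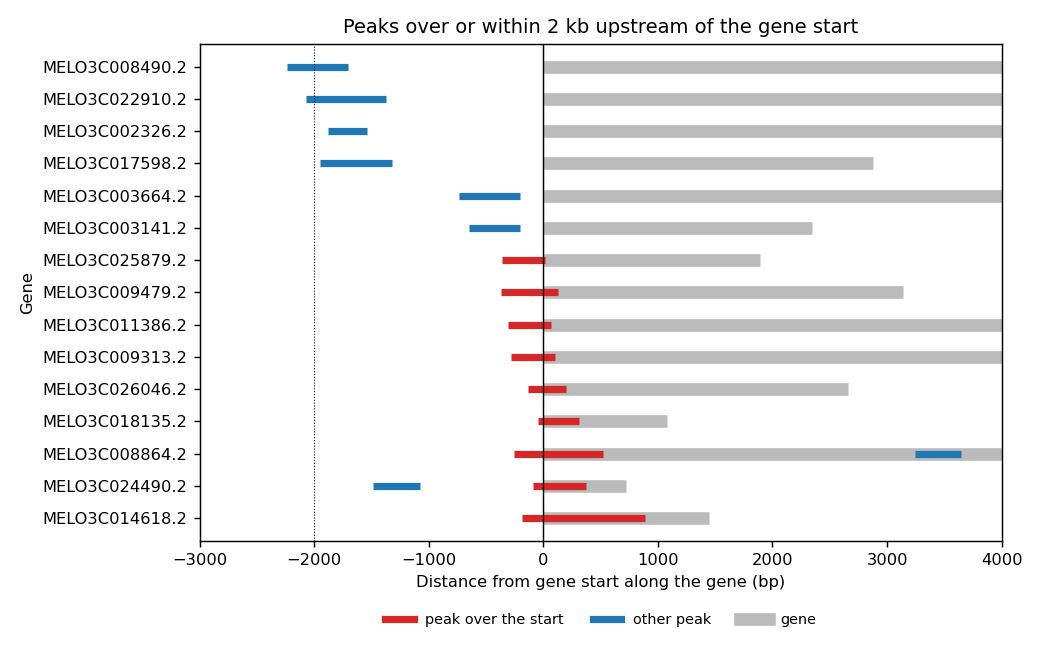
Peaks of the 15 genes with a peak over the gene start or with the centre of a peak up to 2 kb before it, drawn to scale along each gene (grey, from its start at 0, cut at 4 kb) with upstream to the left. Red peaks cover the start and blue peaks do not; of the 9 red peaks, 4 have their centre upstream of the start and 5 inside the gene.

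Of the 11 genes with a peak centre less than 2 kb upstream, 7 had such a peak clear of the start, counting MELO3C024490.2 above. The nearest was 200 bp upstream of MELO3C003664.2 on chromosome 4, annotated with chromatin, DNA repair and sister chromatid cohesion, with a peak of 536 bp. The next was 206 bp upstream of MELO3C003141.2 on chromosome 8, annotated with photomorphogenesis, the response to red and far-red light and chromatin silencing by small RNA. The other 4 lay more than 1 kb away. MELO3C017598.2, a nucleosome gene on chromosome 7, had a peak of 625 bp at a distance of 1324 bp, and MELO3C022910.2, an ATP-binding protein of chromosome organization on chromosome 10, one of 698 bp at 1375 bp. MELO3C002326.2, a nuclease and lyase gene of DNA repair on chromosome 12, had one of 338 bp at 1543 bp. MELO3C008490.2, a histone-lysine methyltransferase gene on chromosome 6, had one of 531 bp at 1708 bp.

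The limit of 2 kb divided close neighbours. The centre of the MELO3C008490.2 peak was 1973 bp upstream, just inside it. Just outside were the centres at MELO3C008017.2, a ribonucleotide reductase gene that supplies DNA building blocks, at 2005 bp, and at MELO3C023581.2, a gene of the Smc5-Smc6 break repair complex, at 2128 bp.

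The nucleosome group holds 9 genes with 11 peaks. A peak within 1 kb of the start on either side was found for 4 of the 9, or 44.4% (13.7 to 78.8), an interval that takes in the 22.0% of other genes with a GO term, and 7 of the 9 had a promoter-class peak, or 77.8% (40.0 to 97.2), against 27 of 64, or 42.2% (29.9 to 55.2), of the other genes chosen here. These intervals overlap. The genes were short, with a median length of 1347 bp, against 6001 bp for all 73. Besides the 4 genes named above, MELO3C004846.2 had a peak 2473 bp upstream, and MELO3C026801.2 had one that began 625 bp from the start of a gene of 309 bp, and so past its end. MELO3C004394.2, a nucleosome assembly gene of 1347 bp, likewise had its peak past the end, 2802 bp from the start. MELO3C028807.2, with the same terms, had a distal peak 6227 bp upstream. MELO3C028752.2 had an intron peak 4404 bp from its start and a distal peak 47231 bp upstream, the farthest of the 88. Histone genes are often near-identical copies, and how reads that match several places were handled was not given in the sources used here, so the assignment of peaks among these genes is uncertain.

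**Figure D3:**
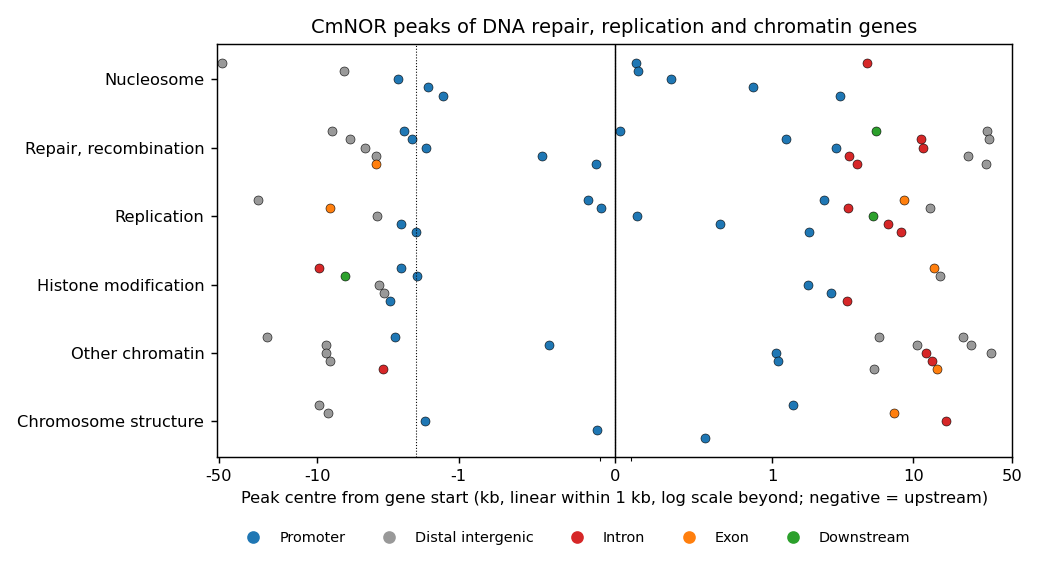
Position of the centre of each of the 88 peaks relative to the start of its assigned gene (kb, linear within 1 kb and on a log scale beyond, upstream to the left), by functional group and coloured by the authors' location class. The dotted line marks 2 kb upstream. Centres spread over both sides of the start. Histone modification genes have no peak within 1 kb, 0 of 12, which allows up to 25.0%, against 22.0% of the other genes with a GO term.

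Among 19 repair and recombination genes, 8 had a promoter-class peak, or 42.1% (20.3 to 66.5), against 49.0% of all genes with a GO term. In introns lay 4 of their 22 peaks, against 4.88% of all peaks in the list. The DNA ligase genes MELO3C003972.2 and MELO3C010375.2, whose products seal nicks in replication and repair, each had 1 peak in an intron, 11497 and 11031 bp from their starts. The helicase gene MELO3C004226.2, annotated with recombination, had an intron peak at 3836 bp. MELO3C013197.2, annotated with the regulation of DNA repair, had an intron peak 3233 bp inside and another peak 3637 bp upstream. MELO3C008612.2 carries terms for the CAF-1 complex, which loads histones on newly copied DNA, and for repair by homologous recombination, and had a peak 1077 bp inside. Each of these 5 genes had a peak inside the gene more than 1 kb from its start.

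Other repair genes had peaks at a distance. The mismatch repair gene MELO3C024845.2 had one 2177 bp upstream, and MELO3C017029.2, of repair and recombination, one 2681 bp from the start and past the gene's end. MELO3C022885.2, of base-excision repair, had a peak 4462 bp upstream, MELO3C010472.2, a hydrolase gene of repair and cell cycle, one 5624 bp upstream, and MELO3C025022.2, an endonuclease gene that binds damaged DNA, one 7665 bp upstream. The methyladenine glycosylase gene MELO3C019611.2, whose product cuts out alkylated bases, had 2 distal peaks 32249 and 33310 bp past its start, only 554 bp apart. MELO3C031111.2, of repair and the negative regulation of systemic acquired resistance, had 2 distal peaks at 24022 and 34044 bp past the start. MELO3C016411.2, of repair and the regulation of DNA methylation, was assigned a peak 3676 bp upstream that lay in an exon of another gene, MELO3C016409.2. MELO3C025799.2 has the same terms as the dioxygenase gene MELO3C026046.2, but its peak lay 5308 bp from the start, in the downstream class.

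Among 14 replication genes, 7 had a promoter-class peak, or 50.0% (23.04 to 76.96), against 49.0% of all genes with a GO term. This class reaches 3 kb to either side, and MELO3C006251.2 and MELO3C020815.2 are counted only through peaks inside the gene. The start was covered in 3 of the 14, as described above, or 21.4% (4.66 to 50.8). The share was 4.20% (3.54 to 4.94) for the other genes with a GO term, and these intervals overlap. MELO3C020815.2, annotated with replication in the nucleus, had 3 peaks, all inside the gene, 506, 2113 and 6457 bp from its start on chromosome 11. Among the 73 genes only this gene and MELO3C020011.2 had 3 peaks. MELO3C010507.2, with the same terms as MELO3C009313.2, had a peak 2318 bp upstream. The other clamp gene, MELO3C030215.2, had a distal peak 12787 bp past its start. MELO3C019257.2 and MELO3C023727.2 had peaks 4889 bp past and 25962 bp upstream of their starts. Both carry terms for replication, chloroplast organization, cyclin-dependent kinase activity and the binding of protein kinases and DNA polymerase. MELO3C007194.2, a DNA polymerase gene, had one 3641 bp upstream.

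A neighbouring pair of replication genes on chromosome 6 each had a peak inside the gene. MELO3C006248.2 (2011815 to 2025459), annotated with helicase and flap endonuclease activity in the processing of Okazaki fragments, the short pieces of the lagging strand, had an intron peak 8007 bp from its start. MELO3C006251.2 (2026429 to 2029113), of the Ctf18 clamp-loader complex, had one 1601 bp from its start, and 969 bp separate these genes. On chromosome 8 the DNA polymerase genes MELO3C024596.2 (9025263 to 9046258) and MELO3C033130.2 (9045142 to 9048190) carry the same terms and overlap by 1117 bp. The peak assigned to MELO3C033130.2, 7910 bp upstream of it, lay in an exon of MELO3C024596.2, whose own peak was in an exon 8306 bp from its start. Both peaks were thus in the body of MELO3C024596.2.

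The 12 histone modification genes each had 1 peak. It was in the promoter class for 5, or 41.7% (15.2 to 72.3), against 49.0% of all genes with a GO term. It lay over the gene start for 0 of 12, which allows up to 25.0%, against 4.37%. The genes were the longest of the 6 groups by median, at 13854 bp. Of the 5 histone-lysine methyltransferase genes, which place methyl marks on histone tails, MELO3C008490.2 had its peak 1708 bp upstream and MELO3C026117.2, with the same terms, 3130 bp upstream. The others had theirs inside the gene, at 1561 bp in MELO3C010193.2, 2334 bp in MELO3C008647.2 and 3133 bp in MELO3C031134.2. The acetylation genes carry terms for histone acetylation or for complexes that add acetyl groups to histones. Their peaks lay 2797 bp upstream of MELO3C015232.2 (NuA4 complex) and 3538 bp upstream of MELO3C013698.2 (acetyltransferase). In MELO3C007903.2, of an acetyltransferase complex, the peak lay in an exon 13725 bp from the start. MELO3C029177.2, of an acetyltransferase complex and DNA demethylation, was assigned a peak 9472 bp upstream inside an intron of MELO3C021122.2. The deacetylase gene MELO3C013472.2, whose product removes acetyl groups, had a peak 6093 bp upstream. Peaks of MELO3C012834.2, of the COMPASS methylation complex, and MELO3C006469.2, of the Paf1 elongation complex, lay 2352 bp upstream and 15032 bp past the start.

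Of the 13 other chromatin genes, 7 had distal peaks only, or 53.8% (25.1 to 80.8), an interval that takes in the 36.3% of all genes with a GO term. A promoter-class peak was found for 3 of the 13, or 23.1% (5.04 to 53.8), an interval that takes in the 49.0% of all genes with a GO term. Of the 4 genes with identical terms for histone binding and zinc binding, 0 had one, a group too small to compare. Among these, MELO3C020011.2 had 3 distal peaks 5495, 10412 and 25501 bp past its start, and MELO3C035339.2 had 2 at 8416 and 22430 bp upstream. MELO3C029884.2 had 1 distal peak 35413 bp past its start, and MELO3C012519.2 had 1 of 899 bp, 22116 bp past its start. MELO3C022550.2, a histone-binding ligase gene, had an intron peak and an exon peak, 12008 and 14463 bp inside. The cytosine-5 DNA methyltransferase gene MELO3C015649.2, whose product methylates DNA, had a peak 8599 bp upstream. MELO3C013346.2, of sister chromatid cohesion, had peaks 2678 bp upstream and 871 bp inside, and MELO3C000805.2, of the same process, had one 5073 bp past its start on chr0. MELO3C024916.2, of chromatin binding, had one 858 bp inside. MELO3C011649.2, an ATPase gene that opposes chromatin silencing, had an intron peak at 13184 bp. MELO3C008167.2, of chromatin assembly or disassembly, had one 7925 bp upstream, and MELO3C006760.2, of chromatin remodeling, one 3149 bp upstream inside an intron of MELO3C006759.2.

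The 6 remaining genes carry chromosome terms. Against 49.0% of all genes with a GO term, 4 of the 6, or 66.7% (22.3 to 95.7), had a promoter-class peak. Besides the type II topoisomerase and MELO3C022910.2, these were the type I topoisomerase gene MELO3C018497.2, with a peak 1240 bp inside, and the centromere gene MELO3C031508.2, with one 415 bp inside. MELO3C019721.2, which has the same centromere term, had its peak across the end of the gene, 7130 bp from the start. MELO3C022955.2, annotated with binding to AT-rich DNA, had 2 distal peaks, 8142 and 9591 bp upstream and 938 bp apart.

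Identical GO terms joined 28 of the 73 genes in 11 sets. In 6 of the 11 sets some but not all genes had a promoter-class peak, in 1 all did and in 4 none did. Promoter-class peaks were at 49.0% of all genes with a GO term, and nothing particular to these genes is read from the count of mixed sets. Within the set of 6 nucleosome genes, 3 had the start covered, 1 had a peak 1324 bp upstream, 1 had a peak past its end and 1 had an intron and a distal peak.

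Intron peaks made up a larger share here than among other annotated genes. They were 14 of 88 peaks, or 15.9% (8.98 to 25.2), against 203 of 4019, or 5.05% (4.39 to 5.77). Distal intergenic peaks were 28 of 88, or 31.8% (22.3 to 42.6), against 1722 of 4019, or 42.8% (41.3 to 44.4). Exon peaks were 6 of 88, or 6.82% (2.54 to 14.3), against 196 of 4019, or 4.88% (4.23 to 5.59), and 0 of 88 were in a UTR class, which allows a share of up to 3.41%, against 35 (0.871%) in 3' UTRs and 3 (0.0746%) in 5' UTRs. The genes were also longer, with a median of 6001 bp against 3320 bp. In genes of at least 3 kb the intron share was 13 of 60 peaks, or 21.7% (12.1 to 34.2), against 170 of 2195, or 7.74% (6.66 to 8.94). In genes of at least 6 kb it was 12 of 43, or 27.9% (15.3 to 43.7), against 147 of 974, or 15.1% (12.9 to 17.5), where the intervals overlap. Intron length was not measured. Every peak up to 3 kb from a start is in the promoter class, so the intron class begins beyond 3 kb and its share is tied to gene length. The 14 include the peaks of MELO3C029177.2 and MELO3C006760.2, which lay in introns of other genes. Of exon and intron peaks together, 4 of 20 here and 177 of 506 in the whole list lay in such other genes. The intron share was not a planned result.

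The share of covered starts was also set out by gene length. Among genes under 3 kb, 5 of 22, or 22.7% (7.82 to 45.4), had a peak over the start, against 65 of 1532, or 4.24% (3.29 to 5.38). Among genes of at least 3 kb it was 4 of 51, or 7.84% (2.18 to 18.9), against 75 of 1801, or 4.16% (3.29 to 5.19), with overlapping intervals. Without the nucleosome group 6 of 64 genes had a covered start, or 9.38% (3.52 to 19.3), an interval that reaches the 4.20% of the other genes. The 3 covered starts of the nucleosome group (MELO3C014618.2, MELO3C018135.2 and MELO3C024490.2) are all among the 5 in genes under 3 kb. The result for short genes and that for the nucleosome group are therefore not separate, and the assignment of peaks in this group is uncertain.

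**Figure D4:**
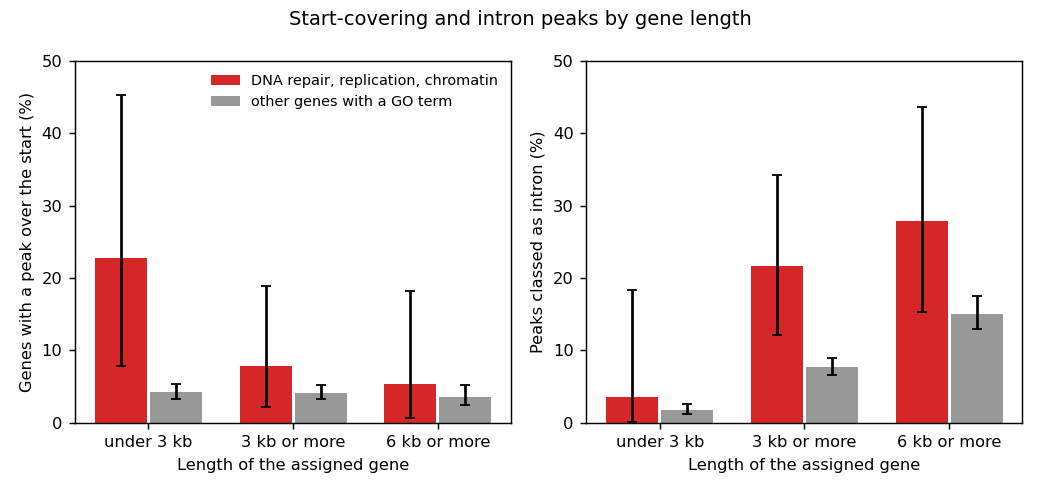
Left, percentage of genes with a peak over the start, and right, percentage of peaks classed as intron, by length of the assigned gene (the class of 6 kb or more is part of the class of 3 kb or more), for the DNA repair, replication and chromatin genes (red) and other genes with a GO term (grey), with 95% exact intervals. The red share is the higher in each class, with intervals apart for covered starts under 3 kb (22.7% against 4.24%) and for intron peaks at 3 kb or more (21.7% against 7.74%). Of the 5 covered starts in red under 3 kb, 3 are of the nucleosome group. The red intron bar under 3 kb is 1 of 28 peaks, and that peak lies in an intron of a gene other than the assigned one.

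Several peaks per gene were about as frequent as elsewhere. Of the 73 genes, 13 had 2 or more peaks, or 17.8% (9.84 to 28.5), against 491 of 3333, or 14.7% (13.5 to 16.0), of the other genes and 14.8% of all 3406. Gaps between peaks of 1 gene ran from 554 bp at MELO3C019611.2 to 51634 bp at MELO3C028752.2. By gene, 17 of the 73, or 23.3% (14.2 to 34.6), had a peak with another listed peak within 5 kb of it, against 412 of 3333, or 12.4% (11.3 to 13.5), of the other genes and 12.6% of all. The close peak belonged to the same gene in 8 of the 73, or 11.0% (4.85 to 20.5), against 256 of 3333, or 7.68% (6.80 to 8.64). It belonged to another gene in 9, or 12.3% (5.80 to 22.1), against 170, or 5.10% (4.38 to 5.90). The 9 include MELO3C024596.2 and MELO3C033130.2, counted through the same pair of peaks, both in the body of MELO3C024596.2. The interval takes such genes as independent, and pairs can be counted at both genes among the other genes too. The comparison of close peaks was not planned, and its intervals do not meet for any close peak. They overlap for peaks of the same gene and only just for those of another gene. Whether such pairs are separate binding sites or parts of a single broad one cannot be told from the list.

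Widths and distances were near those of other annotated genes. The 88 peaks were 302 to 1078 bp wide with a median of 441.5 bp and quartiles of 347 and 501.5 bp, against a median of 424 bp and quartiles of 357 and 502 bp for the 4019 other peaks. The median distance to the gene start was 3639 bp, against 3815 bp. By group, the median width was 501 bp for histone modification, 449 bp for nucleosome, 441 bp for replication, 430 bp for other chromatin, 402 bp for repair and recombination and 330.5 bp for chromosome structure. The ranges of these groups overlap. The 5 widest peaks were those of MELO3C014618.2 (1078 bp), MELO3C012519.2 (899 bp), MELO3C008864.2 (778 bp), MELO3C006469.2 (736 bp) and MELO3C022910.2 (698 bp), each from a different group.

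**Figure D5:**
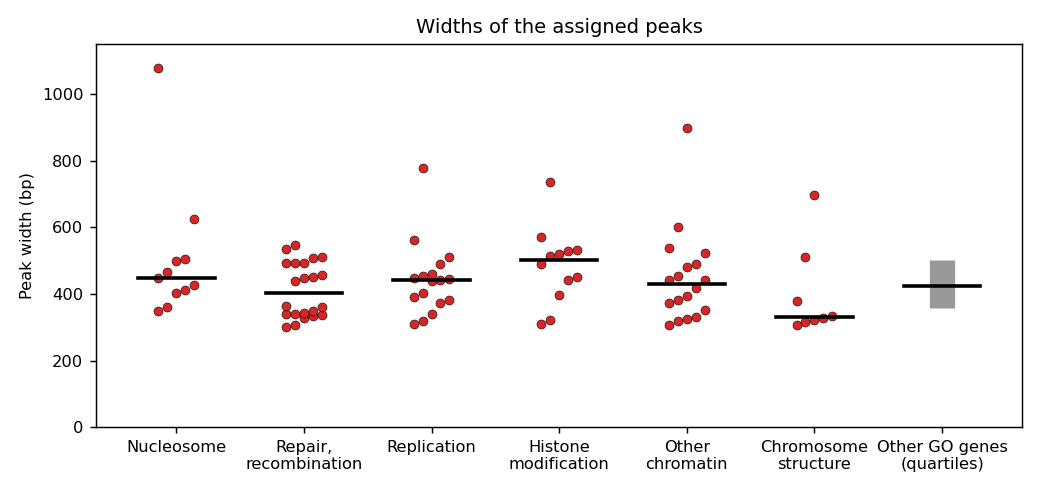
Width in bp of each of the 88 peaks by functional group (points, with the group median as a black line) and, at the right, the quartiles (grey bar) and median (line) of the 4019 peaks of other genes with a GO term. Group medians run from 330.5 to 501 bp, against 424 bp for the other genes, and single wide peaks reach 1078 bp.

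The peaks were spread over 11 numbered chromosomes and chr0. Chromosome 1 held 13 of the 88 (14.8%), chromosome 8 held 12 (13.6%) and chromosome 3 held 11 (12.5%). These chromosomes had 8.94%, 8.27% and 8.59% of all peaks, which include peaks of genes without a GO term. Chromosome 9 held 0 of the 88, which allows a share of up to 3.41%, against 6.01% of all peaks. These chromosomes are named for having the highest and lowest counts, so no depletion or excess is read from them. In the outer 20% of the numbered chromosomes lay 24 of 87 peaks, or 27.6% (18.5 to 38.2), against 1146 of 3916, or 29.3% (27.8 to 30.7), with the span taken up to the last listed peak.

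Some further terms accompany the chosen ones in the same annotations, so their shares describe the members and follow in part from the choice. The term nucleus was carried by 38 of the 73 (52.1%), against 242 of 3333 other genes (7.26%), and DNA binding by 26 (35.6%), against 237 (7.11%). Zinc ion binding was carried by 12 (16.4%), against 201 (6.03%), and ATP binding by 12 (16.4%), against 335 (10.1%). Protein heterodimerization, a term of the paired histones, was carried by 7, all in the nucleosome group, against 3. The methyltransferase term was on 6, against 55.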

How the data were processed

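Binding of MBP-His-CmNOR (2 libraries) or MBP-His (2 libraries) to melon DNA was sequenced by DAP-seq with a NEXTflex kit; a PCR-amplified variant is also described, without saying which libraries used it, per the labels' protocols. MACS2 and deepTools are named in the submitters' processing notes. The aligner, genome build, annotation, thresholds and merging of libraries were not given in the sources used here, so how many weak or multiply matching sites were kept is unknown. The authors deposited other values only, positions, widths and signed distances in bp, with location classes and GO terms, per the file headers. The planned count test was not run, since there are no counts.

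Distances are the authors' own and run from the gene start to the edge of the peak that lies nearest. The promoter class held exactly the peaks up to 3 kb from a start, checked on 5493 peaks. Any term containing chromosome was a match. Each gene went to the first fitting group of nucleosome, repair and recombination, replication, histone modification, other chromatin and chromosome structure. The rule for named genes took those with an upstream or start-covering peak, 2 or more peaks, the 5 widest peaks, the 3 nearest and 3 farthest peaks, and the widest in a group left out; other members were named after their values were seen. The members and lists were chosen with earlier results of these data known. Position rules were tested on simulated data. Intervals came from scipy 1.17.1, tables from pandas 2.3.3 with numpy 2.4.6, and figures from matplotlib 3.10.9, under Python 3.11.15. No genome sequence was used, so no peak sequence is shown.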

Additional observations from a re-analysis of the deposited data

How the results depend on the processing

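Of 35 recomputed values, 33 stayed inside the 95% interval of the value given (for the number of genes, within 1.5 times). Several settings could move little, as case-insensitive keywords left 73 genes and chr0 held 1 peak of these genes. The intervals are also wide. The covered-start share of 7.84% in genes of at least 3 kb stayed inside, although its interval overlaps that of the other genes. The 2 that moved were the promoter-class share, 21.9% when the class was limited to 1 kb, against 22.0% of the other genes with a GO term, and the share of genes with a covered start, 22.7% in genes under 3 kb. The first follows from the smaller zone; for the second, 4.24% in the other genes under 3 kb, the cause was not tested. The share of genes with an upstream peak, 15.1% against 17.8% in the other genes, was 8.22% against 9.75% with a promoter of 1 kb and 24.7% against 24.3% with 3 kb. It was 23.3% against 21.5% when 1 bp of overlap with the 2 kb sufficed. Taking chromosome as a whole term left 71 genes. The covered-start share was 8.89% with peaks of at least the median width of 421 bp, where genes without such a peak left the denominator. The covered-start share and the intron share were not planned results. Their settings and the reading of chromosome were added after seeing the data. No paired analysis was possible because the list has no column per library; leaving out a library was likewise not possible, and depth is unknown.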

Other observations

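The 3 genes that matched the keywords but were dropped had 1 peak each. MELO3C033388.2, of a histone acetyltransferase complex with a DNA integration term, had a peak of 895 bp on chromosome 8, 341 bp inside the gene. MELO3C014846.2, with the same terms, had one 10523 bp past its start on chromosome 6. MELO3C018124.2, of a chromatin silencing complex and genetic imprinting with a transcription factor term, had one 7679 bp upstream on chromosome 4.

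The exon numbers in the authors' location class ran against the direction of the gene on the minus strand. Across peaks in exons of their own assigned gene, with at least 4 exons, Spearman's rho between the exon number and the position along the gene was 0.73 on the plus strand (71 peaks) and -0.84 on the minus strand (78 peaks). For introns it was 0.66 (84 peaks) and 0.74 (69 peaks). These values describe the list, whose peaks can share a gene, and exon numbers are therefore not quoted here. Of the 20 exon or intron peaks of the 73 genes, 4 lay inside a gene other than the assigned one, against 177 of 506 in the whole list.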
